A study of Homo sapiens with 4 samples.

Results

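MHC class I molecules display peptides from inside the cell to CD8 T cells and NK cells. A polymorphic heavy chain folds around β2-microglobulin in the endoplasmic reticulum, the TAP transporter pumps in peptides made by the proteasome, and tapasin bridges empty heavy chains to TAP until a fitting peptide is bound. NLRC5, a NOD-like receptor family protein, enters the nucleus and activates transcription of the heavy chain genes and of much of this machinery, and interferon signalling raises the whole pathway. B-lineage cells carry class I constitutively.

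The 9 genes described here are the heavy chain genes HLA-B, HLA-C, HLA-E and HLA-F, the light chain gene B2M, the peptide transporter genes TAP1 and TAP2, the tapasin gene TAPBP and the regulator gene NLRC5. They were chosen by symbol and found by Ensembl ID, 9 of 9, among the 43450 gene IDs of the deposited table, and 9 of 9 had a mean of at least 1 FPKM (fragments per kilobase of transcript, relative to the library's mapped fragments) over the libraries. Polyadenylated RNA was measured in BLaER1, an established line of human leukaemic B-lineage cells with a C/EBPα transgene that can be switched on; the labels mention no induction. One group of 2 libraries, replicates 0 and 1, came from cells whose medium received 3 LNA GapmeR antisense oligonucleotides against the long non-coding RNA HAL7, and the other group of 2 libraries, also replicates 0 and 1, is labelled control. The sources used here give neither what the control cells received nor the length of treatment. The study asked which genes change expression when HAL7 is knocked down. Nothing in the labels says that the replicates were separate cultures, so p-values rest on the spread between libraries alone, and this may be technical.

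Depth was recovered from the steps in which low FPKM values fall, and came to 107 and 95.1 M fragments in the knockdown libraries and 60.1 and 127 M in the control libraries, replicates 0 and 1 in that order. HAL7 was at 0.475 and 0.347 FPKM in knockdown libraries, against 0.726 and 0.613 FPKM in control libraries, with a limma adjusted p of 0.32. Its mean over the libraries, 0.54 FPKM, was below the 1 FPKM that other genes needed to be tested. The counting error of HAL7 was not worked out. Of 13 B-cell precursor markers, 13 were at a mean of 1 FPKM or more, led by DNTT and IGLL1, and they summed to 4500.3 and 4522 FPKM in knockdown libraries, against 4660 and 4680 FPKM in control libraries. Of these, RAG1 and RAG2, the recombinase genes of B and T cell precursors, were lower at unadjusted limma p of 0.0075 and 0.026, with adjusted p of 0.20 and 0.25. RAG1 had 216 and 191 FPKM in knockdown libraries, against 240 and 252 FPKM in control libraries, and RAG2 had 365 and 319 FPKM in knockdown libraries, against 386 and 415 FPKM in control libraries. The summed level of 9 T cell markers was 0.269 to 0.286 FPKM in knockdown and 0.234 to 0.264 FPKM in control libraries, with CD3D, CD3G, CD2 and TRBC1 listed at 0 throughout and CD5 the most abundant. Of 12 macrophage or monocyte markers, 2 reached a mean of 1 FPKM, CSF1R and CD68, and S100A8, S100A9 and FCGR3A were listed at 0 in every library. That list summed to 36.6 and 40.3 FPKM in knockdown libraries, against 39.5 and 38.5 FPKM in control libraries, and within it CD68 had 2.43 and 1.995 FPKM in knockdown libraries, against 2.73 and 3.21 FPKM in control libraries, with an unadjusted limma p of 0.024 and an adjusted p of 0.24. Of 8 erythroid and platelet markers, ITGA2B alone reached a mean of 1 FPKM, and the list summed to 1.52 and 1.604 FPKM in knockdown libraries, against 1.83 and 1.84 FPKM in control libraries. Of 7 dendritic cell markers, FLT3 alone did so, and the list summed to 2.66 and 2.98 FPKM in knockdown libraries, against 2.24 and 2.498 FPKM in control libraries.

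None of the 9 genes passed the test for a difference between knockdown and control, and the differences were small. In limma on log2(FPKM + 1), adjusted over all 12935 tested genes at a threshold of 0.05, 0 of 9 passed, where 0.0232% of all tested genes passed on the lower side and 0.00773% on the higher side. HLA-F, HLA-C, NLRC5, TAP1 and HLA-B stood 8.76% to 16.1% lower in knockdown than in control libraries by their means, whereas B2M stood 2.14% higher and TAP2 2.201% lower. A negative log2 change was found for 8 of 9 genes, against 53.2% of all tested genes. The groups did not overlap, knockdown lower, for 7 of 9 genes, against 27.7% of all, and in 0 of 9 were they apart with knockdown higher, against 22.5%. At an unadjusted limma p under 0.05, 4 of 9 genes were lower, namely HLA-C, NLRC5, TAP1 and HLA-F, against 9.35% of all tested genes. The median log2 change was -0.13 over the 9 genes and -0.0090 over all tested genes.

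**Figure D1:**
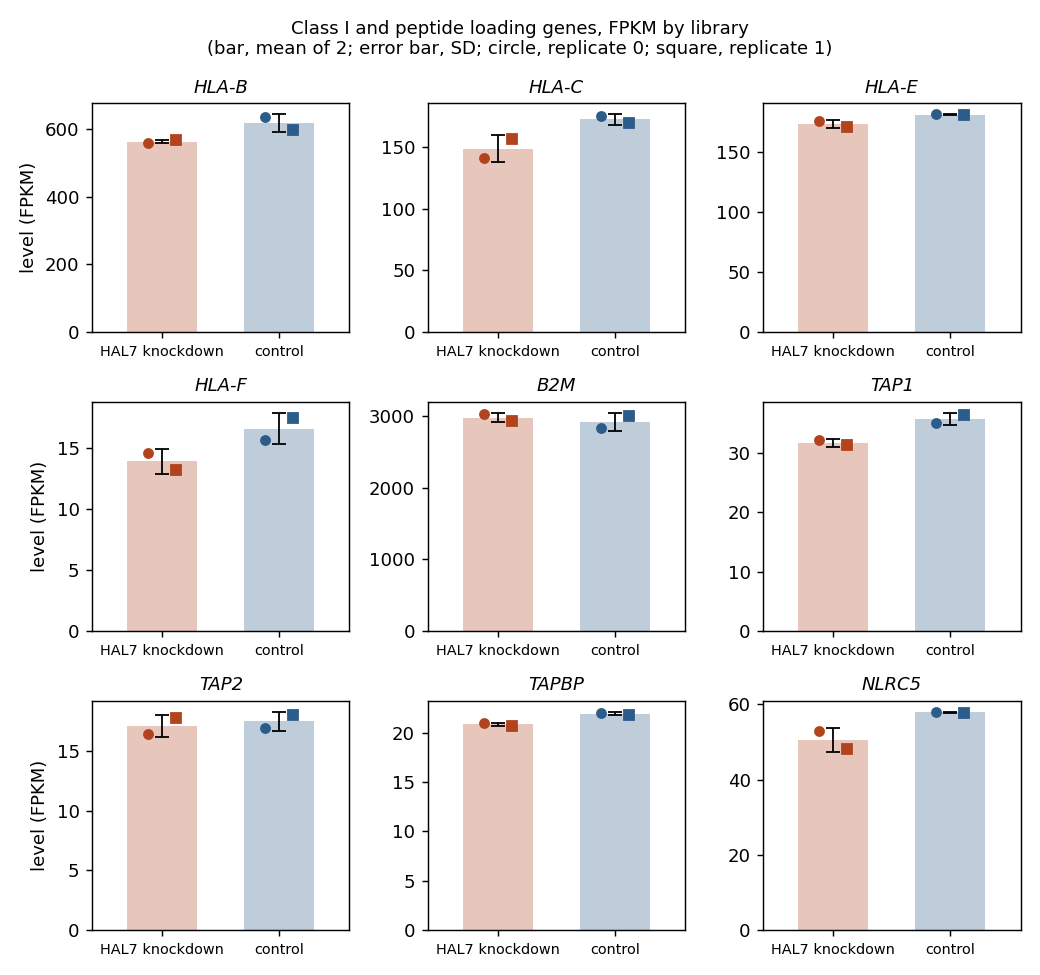
Levels in FPKM of the 9 genes in each library, with HAL7 knockdown left and control right; bars are means of 2 libraries, error bars SD, circles replicate 0 and squares replicate 1. Both knockdown libraries lie below both control libraries in every panel except TAP2 and B2M, where the groups overlap.

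HLA-B and HLA-C encode classical heavy chains, which present peptides to CD8 T cells and carry the ligands of killer-cell immunoglobulin-like receptors. HLA-B had 558 and 566 FPKM in knockdown libraries, against 635 and 597 FPKM in control libraries. Both knockdown values lay below both control values, and the control libraries differed more between themselves than the knockdown libraries did. Its log2 change was -0.13 ± 0.057 (SE), with a limma adjusted p of 0.32. HLA-C had 141 and 157 FPKM in knockdown libraries, against 175 and 169 FPKM in control libraries. Here the spread was wider in knockdown libraries, and knockdown replicate 0 was the lowest of the 4. The log2 change of HLA-C was -0.21 ± 0.065 (SE), with a limma adjusted p of 0.22 and an unadjusted p of 0.015.

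HLA-E and HLA-F encode non-classical heavy chains: HLA-E presents peptides cut from the signal sequences of other class I chains to the NKG2A and NKG2C receptors of NK cells, and HLA-F can appear at the surface without peptide. HLA-E had 176 and 171 FPKM in knockdown libraries, against 181 and 181 FPKM in control libraries. The control libraries were nearly equal and the knockdown libraries sat just under them, with a log2 change of -0.060 and a 95% interval of -0.18 to 0.057. HLA-F had 14.6 and 13.2 FPKM in knockdown libraries, against 15.7 and 17.5 FPKM in control libraries. The groups were apart, but each group's libraries also differed, with the higher 1.11 times the lower in knockdown and 1.12 times the lower in control. The log2 change of HLA-F was -0.24 ± 0.078 (SE), the most negative of the 9, with a limma adjusted p of 0.24.

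B2M, the invariant light chain that classical heavy chains need for stable display at the surface, was the most abundant of the 9. It had 3028 and 2942 FPKM in knockdown libraries, against 2836 and 3009 FPKM in control libraries. The groups overlapped, with control replicate 1 above knockdown replicate 1. The log2 change of B2M was 0.031, with a 95% interval of -0.13 to 0.19 and a limma adjusted p of 0.85; whether it differs from the log2 changes of the other members was not tested. Without control replicate 0 it was -0.012.

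Because FPKM is scaled to length, levels were set against each other within a library. Such comparisons also depend on the authors' gene models and on how reads fall among near copies, as given below. How far this touches the shares and ratios was not tested. The 4 heavy chain genes summed to 890 and 906 FPKM in knockdown libraries, against 1007 and 965 FPKM in control libraries. The level of B2M over this sum was 3.40 and 3.25 in knockdown libraries, against 2.82 and 3.12 in control libraries, so the ratio was higher in both knockdown libraries. Within the sum HLA-B made up 62.6% ± 0.249 in knockdown and 62.5% ± 0.806 in control libraries (SD, n = 2 each). The share of HLA-C was 15.8% and 17.3% in knockdown, against 17.4% and 17.6% in control libraries, and that of HLA-E was 19.8% and 18.9% in knockdown, against 18.0% and 18.7% in control libraries. HLA-F gave 1.64% and 1.45% of the sum in knockdown and 1.55% and 1.81% in control libraries, with overlap. These shares and ratios were not tested, and an exact permutation test of 2 against 2 libraries could give no p below 0.33. The shares and ratios were also not corrected for GC content, with which log2 changes ran, as given below. Transcript GC content was 40.6% for B2M and 54.8% to 62.7% for the heavy chain genes.

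TAP1 and TAP2 encode the paired subunits of the peptide transporter and lie close together on chromosome 6, near the immunoproteasome genes PSMB9 and PSMB8. TAP1 had 32.2 and 31.3 FPKM in knockdown libraries, against 35.1 and 36.5 FPKM in control libraries. The gap between the groups was wider than the spread within either, with a log2 change of -0.17 ± 0.053 (SE), a limma adjusted p of 0.23 and an unadjusted p of 0.018. TAP2 had 16.4 and 17.7 FPKM in knockdown libraries, against 16.9 and 18.0 FPKM in control libraries. Its groups overlapped, with replicate 1 the higher in each group. The log2 change of TAP2 was -0.031, with a 95% interval of -0.19 to 0.13. It turned to 0.021 without knockdown replicate 0 and to 0.013 without control replicate 1. The level of TAP1 over that of TAP2 was 1.96 and 1.76 in knockdown libraries, against 2.07 and 2.02 in control libraries. The levels of the pair thus stood nearer to each other in both knockdown libraries. Whether their log2 changes differ was not tested. The ratio was not corrected for GC content, which was 57.5% for TAP1 and 49.1% for TAP2.

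TAPBP, the tapasin gene, had 21.0 and 20.8 FPKM in knockdown libraries, against 22.1 and 21.8 FPKM in control libraries. Replicates were close and the groups apart, with a log2 change of -0.069 and a 95% interval of -0.19 to 0.055. NLRC5 had 52.8 and 48.2 FPKM in knockdown libraries, against 57.9 and 57.8 FPKM in control libraries. Knockdown replicate 1 was the lowest of the 4 and the control libraries were nearly equal. The log2 change of NLRC5 was -0.19 ± 0.060 (SE), with a limma adjusted p of 0.22 and an unadjusted p of 0.016. In bulk RNA such as this, fewer cells that express a gene and less of its RNA per cell cannot be told apart.

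**Figure D2:**
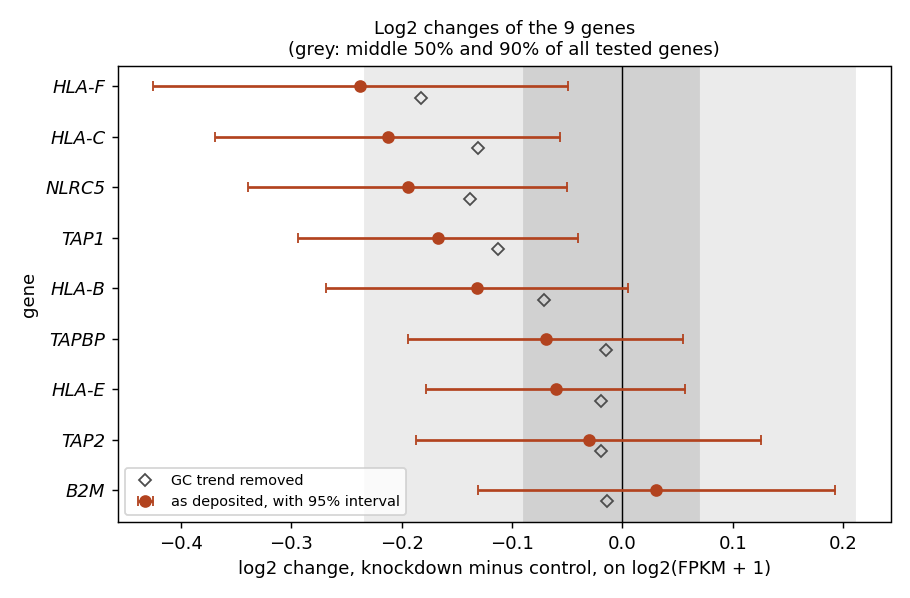
Log2 change (knockdown minus control, on log2(FPKM + 1)) of each gene with its 95% interval, and as an open diamond the value after the trend with GC content was removed; grey bands hold the middle 50% and 90% of all 12935 tested genes. The intervals of HLA-F, HLA-C, NLRC5 and TAP1 lie below 0 before adjustment, and B2M is the 1 gene above 0.

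Class I genes share upstream elements that NLRC5, interferon-induced factors and NF-κB are known to use. The promoters of 5 members are shown, partly for these elements and partly for how the groups lay. The groups were apart, knockdown lower, for HLA-B, HLA-C, HLA-F and TAP1, and overlapped for B2M. The promoters of TAPBP, whose groups were also apart, and of TAP2, whose groups overlapped, were searched but are not printed. RefSeq windows on GRCh38.p14 were found for 7 of 9 members, all except HLA-E and NLRC5; each printed run is the 250 bases before the annotated start, 5′ to 3′ on the gene's strand. Capitals mark the letters searched on both strands: the κB-like GGGNNTTNC, the interferon-response patterns GAAANNGAA and GAAGTGAAA, the cAMP-response half-site TGACG, which lies in the X2 element, and CCAAT, the core of the Y element. Matches may overlap, as a pair of GAAANNGAA matches does in B2M and in TAP1, where they read as 1 longer capital run.
HLA-B (chr6:31357180-31357429, minus strand): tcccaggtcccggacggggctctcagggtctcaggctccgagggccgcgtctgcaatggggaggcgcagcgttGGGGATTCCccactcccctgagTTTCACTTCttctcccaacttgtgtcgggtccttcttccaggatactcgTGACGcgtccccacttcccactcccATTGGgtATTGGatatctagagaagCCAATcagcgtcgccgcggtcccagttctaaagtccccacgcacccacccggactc
HLA-C (chr6:31272093-31272342, minus strand): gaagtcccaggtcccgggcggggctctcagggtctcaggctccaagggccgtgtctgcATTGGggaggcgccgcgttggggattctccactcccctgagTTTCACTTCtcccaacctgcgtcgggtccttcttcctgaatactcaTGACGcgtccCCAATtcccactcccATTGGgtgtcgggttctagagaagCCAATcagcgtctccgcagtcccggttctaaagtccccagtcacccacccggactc
HLA-F (chr6:29723184-29723433, plus strand): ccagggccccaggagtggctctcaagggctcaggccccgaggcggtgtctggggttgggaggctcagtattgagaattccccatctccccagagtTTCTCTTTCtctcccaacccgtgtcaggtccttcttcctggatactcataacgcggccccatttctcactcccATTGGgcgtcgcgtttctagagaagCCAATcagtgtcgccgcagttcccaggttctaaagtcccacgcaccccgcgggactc
B2M (chr15:44711267-44711516, plus strand): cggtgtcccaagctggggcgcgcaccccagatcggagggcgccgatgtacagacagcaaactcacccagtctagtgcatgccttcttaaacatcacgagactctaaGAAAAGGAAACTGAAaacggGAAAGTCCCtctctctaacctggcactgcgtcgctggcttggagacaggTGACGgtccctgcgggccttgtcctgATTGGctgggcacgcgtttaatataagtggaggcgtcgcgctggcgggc
TAP1 (chr6:32853705-32853954, minus strand): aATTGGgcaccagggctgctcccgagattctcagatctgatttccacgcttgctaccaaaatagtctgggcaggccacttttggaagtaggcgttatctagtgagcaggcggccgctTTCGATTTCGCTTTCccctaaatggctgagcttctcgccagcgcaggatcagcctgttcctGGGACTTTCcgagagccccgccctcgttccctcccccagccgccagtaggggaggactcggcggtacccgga

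HLA-B and HLA-C carried the same order of letters, GAAGTGAAA on the opposite strand, then TGACG, then CCAAT in either orientation, with 1 further CCAAT match upstream of these in HLA-C. In HLA-B the κB-like match GGGGATTCC preceded them, 177 to 169 bases before the start. HLA-F, the member with the most negative log2 change, held 1 GAAANNGAA match, 155 to 147 bases before the start, and a pair of CCAAT matches, with no match to GGGNNTTNC, GAAGTGAAA or TGACG. B2M, whose groups overlapped, held a κB-like match, a pair of interferon-response matches, TGACG and CCAAT. Of the promoters not printed, that of TAPBP held 2 GGGNNTTNC and 2 GAAANNGAA matches, and that of TAP2 held 1 GAAANNGAA and 1 TGACG match. The letters searched were chosen after the members' promoters had been read, and the κB-like and GAAANNGAA patterns were shortened from longer forms tried first, so the counts in members are a description only. Among the first windows of the 7 members, GGGNNTTNC was in 4, GAAANNGAA in 5, GAAGTGAAA in 2, TGACG in 4 and CCAAT in 5. A further TAP1 window held no match and is not in these counts, whereas the shares below include further windows of a gene. Of all 35116 RefSeq windows cut to the same length, 14.2% held GGGNNTTNC, 6.88% GAAANNGAA, 0.439% GAAGTGAAA, 21.2% TGACG and 32% CCAAT. B2M thus held each pattern that HLA-B held except GAAGTGAAA, and a match is a description of the sequence, not of a bound factor.

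The signed log2 change ran with the GC content of the transcript, and was more negative at higher GC content. Over 12499 tested genes with a GC value, Spearman's rho between log2 change and GC content of the longest transcript was -0.41, a description across genes that share the same 4 libraries. The members' median GC content was 57.6%, against 48.6% for all tested genes. B2M, at 40.6%, and TAP2, at 49.1%, were the lowest in GC, and HLA-C, at 62.7%, was the highest. Of the 3298 tested genes at 55% to 65% GC, 72.7% had a negative log2 change, 16.8% were lower at an unadjusted limma p under 0.05, and the median log2 change was -0.061. With the GC trend removed, 9 of 9 members had a negative log2 change, against 49.1% of the genes tested, and 1 of 9, HLA-C, was lower at an unadjusted limma p under 0.05, against 7.32%. The median of the members was then -0.071, with HLA-F at -0.18, NLRC5 at -0.14, HLA-C at -0.13, TAP1 at -0.11, HLA-B at -0.071 and B2M at -0.014. Each of these values was nearer to 0 than without the correction, that of B2M on the other side of it, and what produces the trend was not tested.

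**Figure D3:**
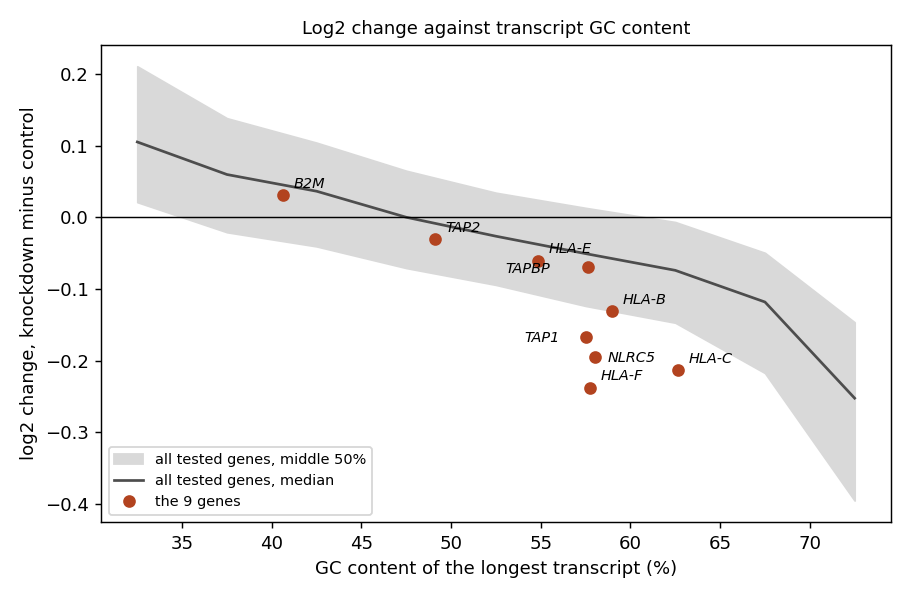
Log2 change (knockdown minus control) against GC content of the longest transcript in percent; the line and band give the median and middle 50% of all tested genes in steps of GC content, and points are the 9 genes. B2M, TAP2, HLA-E and TAPBP lie close to the line, and HLA-F, HLA-C, NLRC5 and TAP1 lie below the band.

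Leaving out single libraries moved the members' log2 changes but reversed none of those of HLA-B, HLA-C, HLA-E, HLA-F, TAP1, TAPBP and NLRC5. HLA-F ran from -0.31 to -0.16, HLA-C from -0.29 to -0.14, NLRC5 from -0.26 to -0.13, TAP1 from -0.19 to -0.14 and HLA-B from -0.18 to -0.087. The count of members lower at an unadjusted limma p under 0.05 was 3 without knockdown replicate 0, 2 without knockdown replicate 1, 2 without control replicate 0 and 1 without control replicate 1. At the recovered depth, and over the longest transcript, HLA-F in control replicate 0 stood for about 1539 fragments, a counting error of 2.55%, and in the library where each other member had fewest fragments its counting error was 0.156% to 1.42%; these cover counting only.

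**Figure D4:**
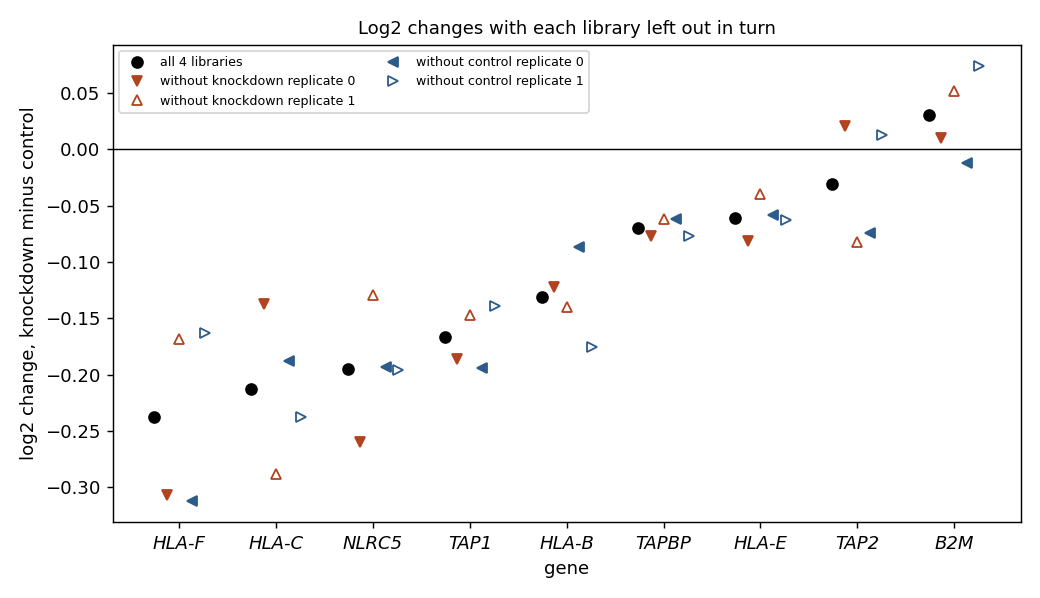
Log2 change (knockdown minus control) of each gene with all 4 libraries and with each library left out in turn. HLA-F, HLA-C, NLRC5, TAP1, HLA-B, TAPBP and HLA-E stay below 0, and B2M and TAP2 cross it.

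Class I genes are near copies of each other, so reads may be split or lost between them, and whether strand was used in counting is not stated. Whether this touches any value here was not tested. The pseudogene HLA-H had 11.2 and 10.6 FPKM in knockdown libraries, against 11.5 and 4.13 FPKM in control libraries. Control replicate 1 alone stood apart, and without control replicate 0 HLA-H was called higher, with a log2 change of 1.22 and a limma adjusted p of 0.027, whereas without control replicate 1 the log2 change was -0.065. The pseudogene HLA-L had 4.77 and 4.86 FPKM in knockdown libraries, against 5.48 and 5.50 FPKM in control libraries. Of 7 class I pseudogenes matched, 4 were tested, 0 passed, and 1 was lower at an unadjusted p under 0.05. GENCODE 29 draws an HLA-B model that overlaps HLA-C on the same strand, so these genes' values are uncertain in the same way; the authors' gene models are not known here.

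Other genes of the pathway were taken from 11 lists with 117 distinct tested genes. Of these, 0 passed limma over all genes in either direction; 12 genes, or 10.3%, were lower at an unadjusted p under 0.05, against 9.35% of all tested genes, and 9 genes, or 7.69%, were higher, against 7.25%. The 9 higher genes had a median GC content of 38.0%, with a range of 33.0% to 51.4%. The 12 lower genes had a median of 53.3%, with a range of 38.7% to 69.1%.

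The genes that work around tapasin were mixed. Of 12 peptide loading partners and endoplasmic reticulum peptidases, 6 had a negative log2 change, 0 passed, and 1 was lower at an unadjusted limma p under 0.05, with a list median of -0.0041. That gene was ERAP1, the aminopeptidase that trims peptides to class I length, at 30.3 and 26.8 FPKM in knockdown libraries, against 34.8 and 32.6 FPKM in control libraries. PDIA3, the thiol oxidoreductase linked to tapasin, had 215 ± 17.9 FPKM in knockdown and 240 ± 3.08 FPKM in control libraries (SD, n = 2 each). CALR, the lectin chaperone calreticulin, had 459 ± 22.7 and 479 ± 4.48 FPKM in the same order, and PDIA6, another oxidoreductase, 313 ± 7.19 and 309 ± 4.86 FPKM.

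The immunoproteasome replaces catalytic subunits of the standard proteasome and favours peptides that class I can bind. Of 9 listed genes of immunoproteasome subunits and of proteasome activation, assembly and regulation, 4 had a negative log2 change and 0 passed. At an unadjusted limma p under 0.05, 2 were lower and 1 higher, and the list median was 0.00085. PSMB10, a catalytic subunit gene, had 44.1 and 47.5 FPKM in knockdown libraries, against 50.1 and 52.2 FPKM in control libraries. PSMB9 and PSMB8 were named after their values were seen, because both lie near TAP1 and TAP2. PSMB9 had 60.3 and 61.1 FPKM in knockdown libraries, against 68.6 and 64.9 FPKM in control libraries. PSMB8 had 84.7 and 86.6 FPKM in knockdown libraries, against 85.3 and 85.8 FPKM in control libraries. The groups were apart for PSMB9, knockdown lower, as for 27.7% of all tested genes, and overlapped for PSMB8. POMP, an assembly factor gene, was on the higher side at 64.2 ± 6.19 FPKM in knockdown and 53.2 ± 0.293 FPKM in control libraries, with a limma adjusted p of 0.21. PSME1 and PSME2, the proteasome activator genes, were at 203 ± 1.93 FPKM in knockdown and 208 ± 3.32 FPKM in control libraries, and at 108 ± 6.51 and 108 ± 3.90 FPKM. The 3 constitutive catalytic subunit genes overlapped between groups, with PSMB7 at 137 ± 6.55 FPKM in knockdown and 142 ± 5.10 FPKM in control libraries and PSMB6 at 67.6 ± 3.39 and 69.8 ± 3.41 FPKM.

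Cytosolic peptidases trim or destroy peptides before TAP. Of 8 such genes, 4 had a negative log2 change, 0 passed, and the median was 0.0019. TPP2, a giant serine peptidase, had 50.4 and 49.5 FPKM in knockdown libraries, against 42.5 and 41.2 FPKM in control libraries, with a limma adjusted p of 0.19. IDE, the insulin-degrading enzyme, had 11.99 and 11.5 FPKM in knockdown libraries, against 13.1 and 13.02 FPKM in control libraries. NRDC and BLMH, the most abundant of the list, were at 52.0 ± 1.19 FPKM in knockdown and 51.7 ± 0.658 FPKM in control libraries, and at 47.5 ± 1.09 and 45.6 ± 0.0583 FPKM.

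Factors that bind class I promoters were mixed. Of 16 genes, 9 had a negative log2 change, 0 passed, 2 were lower and 1 higher at an unadjusted p under 0.05, and the median was -0.040. IRF1, the interferon-induced factor that binds the interferon-response element, had 51.1 and 50.3 FPKM in knockdown libraries, against 56.4 and 57.6 FPKM in control libraries. SPI1, the ETS factor PU.1, had 47.2 and 46.7 FPKM in knockdown libraries, against 55.5 and 53.8 FPKM in control libraries. NFYB, a subunit of the CCAAT-binding factor, lay on the higher side and had 34.1 and 34.3 FPKM in knockdown libraries, against 28.7 and 29.3 FPKM in control libraries. In each of these the gap between groups exceeded the spread within them, at limma adjusted p of 0.21, 0.19 and 0.19. RFX5, which binds the X element together with NLRC5, had 67.3 ± 4.54 FPKM in knockdown and 69.1 ± 1.88 FPKM in control libraries.

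Polycomb repressive complex 2 and DNA methyltransferases are known to silence class I genes in some tumours. Of 12 silencer genes, 7 had a negative log2 change, 0 passed, 1 was lower and 2 higher at an unadjusted p under 0.05, and the median was -0.019. The higher ones were SUZ12 and EED, core Polycomb subunit genes: SUZ12 had 24.2 and 22.7 FPKM in knockdown libraries, against 19.8 and 17.5 FPKM in control libraries, and EED 20.4 and 21.4 FPKM, against 18.5 and 19.1 FPKM, with limma adjusted p of 0.19 and 0.28. Their transcripts are low in GC, at 38.0% and 33.0%. With the GC trend removed, the log2 change went from 0.31 to 0.25 for SUZ12 and from 0.15 to 0.050 for EED. The part of GC content in either was not tested. DNMT3A and DNMT1 had 51.0 ± 0.306 FPKM in knockdown and 55.1 ± 0.915 FPKM in control libraries, and 49.96 ± 0.978 and 49.3 ± 0.367 FPKM.

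Interferon receptor and JAK-STAT genes were mixed. Of 12 tested, 7 had a negative log2 change, 0 passed, 2 were lower and 2 higher at an unadjusted p under 0.05, and the median was -0.030. IFNAR1, a type I interferon receptor chain, had 15.1 and 14.2 FPKM in knockdown libraries, against 12.6 and 11.5 FPKM in control libraries. IFNGR1, the ligand-binding chain of the interferon gamma receptor, had 27.4 and 27.1 FPKM in knockdown libraries, against 24.5 and 24.0 FPKM in control libraries. Both had knockdown values above control values, with limma adjusted p of 0.20 and 0.23. Of the partner chains, IFNAR2 had 14.9 and 12.5 FPKM in knockdown libraries, against 11.6 and 12.3 FPKM in control libraries, whereas IFNGR2 had 26.6 and 25.7 FPKM in knockdown libraries, against 27.4 and 27.8 FPKM in control libraries. The genes lower at an unadjusted p were IRF9, the DNA-binding subunit of the type I interferon response factor, and SOCS1, a feedback inhibitor of JAK kinases. IRF9 had 22.4 and 19.6 FPKM in knockdown libraries, against 23.2 and 25.9 FPKM in control libraries. SOCS1 had 1.97 and 2.10 FPKM in knockdown libraries, against 2.43 and 2.81 FPKM in control libraries. Their limma adjusted p were 0.28 and 0.25. The kinase gene TYK2 and the phosphatase gene PTPN2 were at 59.3 ± 1.05 FPKM in knockdown and 61.1 ± 4.40 FPKM in control libraries, and at 45.8 ± 0.379 and 46.5 ± 1.48 FPKM.

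**Figure D5:**
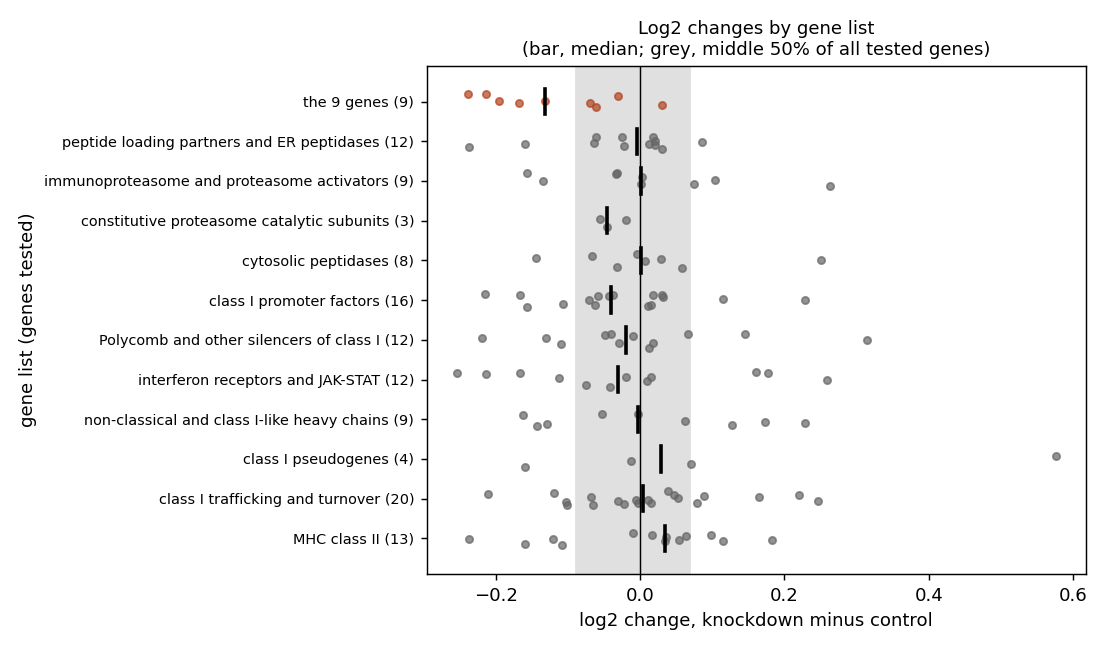
Log2 change (knockdown minus control) of the 9 genes and of every tested gene in 11 pathway lists; points are genes, black bars medians, and the grey band the middle 50% of all tested genes. The median of the 9 genes lies left of the band at -0.13, and the medians of the 11 lists lie within it.

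Heavy chains related to class I gave 9 tested genes of 14, with 5 negative log2 changes, 0 passed, 1 lower at an unadjusted p under 0.05 and a median of -0.0025. MICA and MICB, stress-induced ligands of the NKG2D receptor that need no β2-microglobulin, had 8.72 ± 0.3002 FPKM in knockdown and 9.88 ± 0.3998 FPKM in control libraries, and 17.3 ± 0.470 and 19.0 ± 0.0532 FPKM. FCGRT, the heavy chain of the neonatal Fc receptor, which pairs with B2M, was at 15.4 ± 1.08 FPKM in knockdown and 15.4 ± 0.0354 FPKM in control libraries. Genes of class I trafficking and turnover, 20 tested, had 10 negative log2 changes, 0 passed, 0 lower and 2 higher at an unadjusted limma p under 0.05, and a median of 0.0045. Those higher were SPPL3, an intramembrane protease gene, at 19.8 ± 0.890 FPKM in knockdown and 16.5 ± 1.35 FPKM in control libraries, and SEC61G, a translocon subunit gene, at 88.5 ± 0.273 and 76.0 ± 7.32 FPKM. SYVN1, a ubiquitin ligase of the endoplasmic reticulum, and SEC61B were at 96.0 ± 2.59 FPKM in knockdown and 96.3 ± 1.85 FPKM in control libraries, and at 94.1 ± 7.60 and 93.0 ± 1.77 FPKM.

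MHC class II genes, which share promoter elements with class I but use CIITA in place of NLRC5, gave 13 tested genes with 5 negative log2 changes, 0 passed, 1 lower at an unadjusted limma p under 0.05 and a median of 0.034. CIITA had 55.5 and 55.9 FPKM in knockdown libraries, against 61.1 and 59.1 FPKM in control libraries, so both transactivator genes stood lower, and the level of NLRC5 over that of CIITA was 0.951 and 0.862 in knockdown, against 0.948 and 0.977 in control libraries, with overlap. HLA-DRA and CD74 had 1515 ± 57.1 FPKM in knockdown and 1415 ± 35.4 FPKM in control libraries, and 1284 ± 7.96 and 1254 ± 52.6 FPKM. HLA-DQA1 had 60.4 ± 4.14 FPKM in knockdown and 71.4 ± 5.40 FPKM in control libraries.

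Of the members, 7 lie in the major histocompatibility complex on chromosome 6, B2M on chromosome 15 and NLRC5 on chromosome 16. Other genes between HLA-F and TAPBP, a set chosen after the data were seen, gave 119 tested genes of 231, of which 0 passed. A negative log2 change was found for 72, or 60.5%, against 53.2% of all tested genes. At an unadjusted limma p under 0.05, 15, or 12.6%, were lower, against 9.35%, and 1, or 0.840%, was higher, against 7.25%. The median was -0.033, against -0.0090 for all tested genes. The summed level of 8 NK cell markers was 25.5 and 20.6 FPKM in knockdown libraries, against 31.7 and 30.7 FPKM in control libraries. NKG7 made up most of it, at 21.9 and 17.2 FPKM in knockdown and 27.5 and 27.0 FPKM in control libraries. The log2 change of NKG7 was -0.47, with an unadjusted limma p of 0.0037 and an adjusted p of 0.19. NCAM1 was the other marker above 1 FPKM, KLRD1, GNLY and NCR1 stayed under 0.3 FPKM, and KLRF1 was listed at 0. The part of these and of the other marker genes, RAG1, RAG2 and CD68 among them, in the members' levels was not tested.

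The genes whose profile over the 4 libraries lay nearest to the median profile of the members, by Euclidean distance on the centred log2 scale, were ICAM1, PDK3, DIS3L2, CFAP36 and LGR6, at distances of 0.0050 to 0.012. ICAM1, an adhesion receptor gene, had 7.34 and 7.33 FPKM in knockdown libraries, against 7.93 and 8.002 FPKM in control libraries. The member nearest to that profile lay at 0.040, and 260 other tested genes, or 2.01%, lay nearer than it. With 4 libraries such likeness is common and is given as a description.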

How the data were processed

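The deposited table gives 1 value per library and gene; the unit is not written in it and was taken as FPKM, made by the authors with Cuffdiff, from the tool names and the name of the ID column. The submitters' processing notes name TopHat2 2.0.14, Bowtie2 2.2.5, Cuffdiff 2.2.1 and hg19; the sources used here do not give options, gene models or library scaling. Column names were matched to sample titles. Genes were named by Ensembl ID from GENCODE 29 and a symbol table. The comparison of knockdown with control was fitted with limma 3.58.1 (R 4.3.3) to log2(FPKM + 1), which understates changes of low genes. Genes averaging at least 1 FPKM, and HAL7, were tested, with a variance trend, p-values that are two-sided, and adjustment by Benjamini-Hochberg over all genes tested. No p was adjusted over a list and no set test was run. The script was tested on simulated data. Depth came from 1214 genes with a single transcript of at least 2500 nt. Of low products of FPKM and length, 86.7% to 91.4% lay within 0.15 of a whole multiple of the step. A step fixed beforehand would give 30% by chance, but the step was fitted to these same values, so the shares do not test it. Whole counts were not rebuilt, since transcript lengths used by the authors are unknown. GC content was that of the longest GENCODE 29 transcript, and its trend was removed by loess with a span of 0.3. The members and lists were chosen with earlier results of these data known. Of the listed symbols, 5 class I pseudogenes, MRC1 and TRAC matched no gene ID. The text names the 9 members, HAL7, the 2 genes of smallest p and the 2 most abundant of each list, the most abundant marker genes and 5 genes of like profile; other names were chosen after their values were seen. Alternatives were leaving out each library, GC correction, the replicate block, median centring, quantile normalization, pseudocounts of 5 and 0.1, a filter at 5 FPKM, testing unfiltered and dropping the variance trend; without a library, its lone partner was taken to vary as the other group does.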

Additional observations from a re-analysis of the deposited data

How the results depend on the processing

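Under each of the 13 alternatives, 0 of the 9 members passed limma's test at an adjusted p of 0.05, with a lowest adjusted p of 0.13, for NLRC5. The count with a negative log2 change was 7 to 9. The count lower at an unadjusted p under 0.05 fell to 1 with the GC trend removed, and was 1 to 3 with a library left out. With quantile normalization, HLA-B was lower too, beside HLA-C, NLRC5, TAP1 and HLA-F, at an unadjusted limma p of 0.048. The median log2 change was -0.12 with quantile normalization, -0.071 with the GC trend removed and -0.14 to -0.087 with a library left out. The ratio of B2M over the heavy chain sum, knockdown over control, was 1.12, and 1.07 to 1.18 with a library left out. Over all genes, limma called 4 genes, 0 without a filter (3002 at an unadjusted p under 0.05), 1 at a mean of at least 5 FPKM, 2 with a pseudocount of 0.1, 19 with the replicate block and 11 to 22 with a library left out. Same-numbered libraries deviated together with a correlation of 0.12 across genes, and the labels give the number no meaning, so the samples share only a number; with the replicate block 8 of 9 members had a negative log2 change and 0 passed.

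Values near 0 turned sign. With the GC trend removed, the log2 change was -0.014 for B2M, -0.00450 for NRDC, 0.031 for TYK2, 0.079 for FCGRT and 0.044 for SYVN1. Median centring gave 0.00375 for FCGRT and 0.00147 for SYVN1, and quantile normalization 0.00921 for FCGRT and -0.019 for CD74. With a library left out, the range was -0.012 to 0.074 for B2M, -0.082 to 0.021 for TAP2, -0.0053 to 0.041 for PDIA6, -0.059 to 0.063 for PSME2, -0.096 to 0.0050 for PSMB6, -0.016 to 0.030 for NRDC, -0.11 to 0.030 for RFX5, -0.0019 to 0.037 for DNMT1, -0.11 to 0.031 for TYK2, -0.051 to 0.012 for PTPN2, -0.070 to 0.065 for FCGRT, -0.065 to 1.22 for HLA-H, -0.032 to 0.022 for SYVN1, -0.067 to 0.097 for SEC61B and -0.0086 to 0.077 for CD74. The causes were not tested. The members' counting errors were at most 2.55%, taken at the recovered depth, which rests on a fitted step, and over the longest transcript. The part of depth in the members' values was not tested, and 2 libraries a group leave wide intervals.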
